A study of Danio rerio with 13 samples.

Results

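The genes described here are those with which melanophores, the black pigment cells of zebrafish, make their pigment. Their transcripts were followed in whole skin by RNA sequencing. The rule named 10 genes (dct, tyr, tyrp1a, tyrp1b, pmela, oca2, slc24a5, slc45a2, mitfa and kita) and took the rows of the deposited count table with those symbols, which gave 11 rows of 32105. The name table gives the vertebrate symbol without the zebrafish paralog letter for some rows, so 2 rows are both called TYRP1 and 2 are both called MITF. The TYRP1 rows are tyrp1a and tyrp1b in an order that the names do not give, and they are written here as TYRP1-H (ENSDARG00000056151, the row with more counts) and TYRP1-L (ENSDARG00000029204). Of MITF-H (ENSDARG00000003732, more counts) and MITF-L (ENSDARG00000037833), only 1 can be mitfa, and the other is its paralog mitfb. The row named KIT (ENSDARG00000043317) was taken as kita because kitb has a row of its own.

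Skin came from male zebrafish of the AB strain at 3 months of age, in 13 samples of 3 genotypes of tert, the gene of the catalytic subunit of telomerase. WT (AB wildtype) had 5 samples, HET (tert+/-) had 5 and HOM (tert-/-) had 3, and both mutant groups carry the nonsense allele hu3430. No cell type was sorted, the kit does not mark strand, and the methods count as many animals in each genotype as there are samples, though the labels name no fish, so all p-values refer to the spread between these samples. Total counts ran from 15709310 to 30249877 per sample, of which mitochondrially encoded genes took 19.9% to 56.4%, and the 11 rows together held 273 to 1622 counts. Transcripts of tert were present in every library, at 7.09 to 13.4 CPM (counts relative to the scaled size of the library) in WT, 14.5 to 40.5 in HET and 15.7 to 37.3 in HOM, and as a nonsense allele can leave its transcript in place, the genotype labels cannot be checked by it. Liver genes were far higher in WT5 and WT1 than elsewhere (mean of the centred log2 levels 5.34 and 2.47, against at most 0.768 in the others), so some of the values below are also given without these libraries.

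Melanophores arise from the neural crest. The transcription factor Mitfa directs a crest cell to the melanophore fate, and the receptor tyrosine kinase Kita carries the signal under which melanophores migrate and survive. Melanin is then made inside a specialised lysosome-related organelle, the melanosome, in which tyrosinase oxidises tyrosine and the related enzymes Dct and Tyrp1 act on later intermediates, while the Pmel protein forms the fibrils on which melanin is laid down. Transporters in the membranes of the melanosome and its precursors set its ions and pH. Many of these genes are known from zebrafish colour mutants: sandy (tyr), golden (slc24a5), albino (slc45a2), nacre (mitfa) and sparse (kita). Melanophores form the dark stripes of the flank together with yellow xanthophores and silvery iridophores.

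The abundance of the pigment genes in skin was low and uneven. Counts were divided by gene length for comparisons between genes (RPKM, the CPM per kilobase of gene), with lengths recovered from the deposited tables. The mean over 13 samples was 5.81 RPKM for TYRP1-H, 3.87 for pmela, 1.33 for slc24a5 and 0.993 for kita. Below these lay slc45a2 (0.545 RPKM), MITF-H (0.525), TYRP1-L (0.520), tyr (0.344), MITF-L (0.164), oca2 (0.156) and dct (0.0846). Of all genes tested, 72.0% had a lower mean RPKM than TYRP1-H and 62.1% a lower one than pmela, but only 12.7% lay below tyr and 1.14% below dct. Transcripts of tyr, whose enzyme opens melanin synthesis, were thus in the lower part of the genes tested, and TYRP1-H and the fibril gene pmela were in the upper part. Dct, itself too low to be tested, lay below nearly all of the genes tested. These shares refer to the 19141 genes that passed a filter on low counts, not to all 32105 rows. TYRP1-H was the most abundant of the 11 rows per length in 11 samples and slc24a5 in 2, WT3 and HOM1.

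Neighbours in this order were compared within samples by an exact sign-flip permutation test, two-sided, adjusted over the 10 neighbouring pairs. TYRP1-H exceeded pmela in 13 of 13 samples, with a mean log2 ratio of 0.51 ± 0.27 (SD) and an adjusted p of 0.00244, where the smallest unadjusted p the test allows is 0.000244. That order holds per length (1969 bp for TYRP1-H, 3163 bp for pmela), and the test takes the lengths as given. Before division by length pmela had the higher mean, at 12.3 CPM against 11.4 CPM. Pmela exceeded slc24a5 in 11 of 13 samples (adjusted exact p = 0.0122), kita exceeded slc45a2 in 12 of 13 (0.00977) and oca2 exceeded dct in 12 of 13 (0.0153). The other 6 neighbours did not differ beyond their spread between samples, and of these tyr and MITF-L came closest, with tyr higher in 9 of 13 samples (adjusted exact p = 0.0581). The order of slc24a5 and kita is an order of means only: slc24a5 was the higher in 6 of 13 samples.

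**Figure D1:**
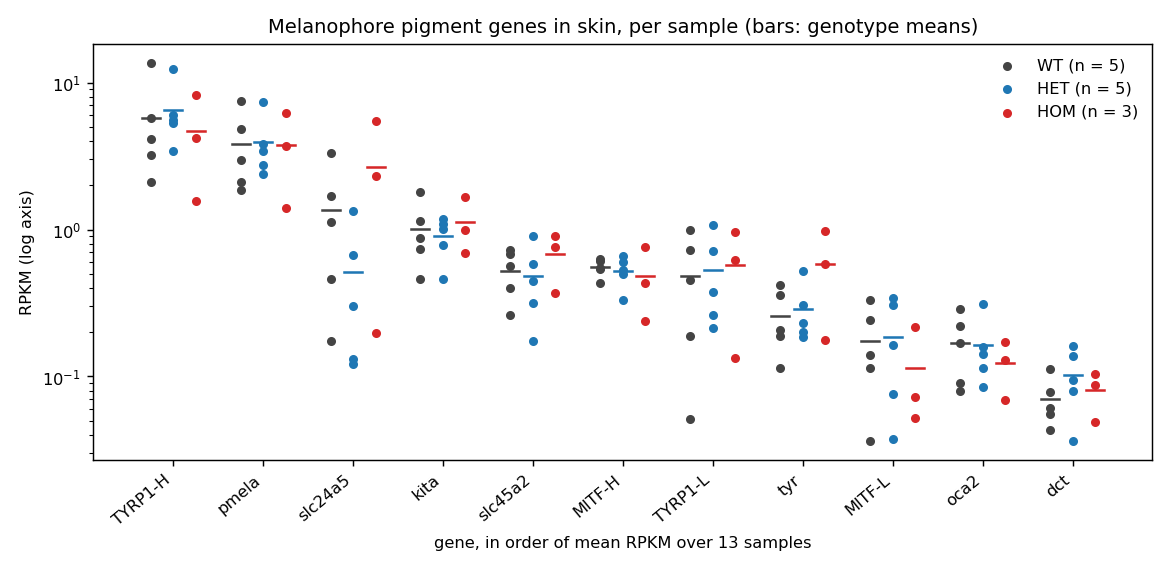
Level of each of the 11 gene rows in every sample, in RPKM on a log axis, with genes ordered by their mean over 13 samples; points are samples coloured by genotype (WT n = 5, HET n = 5, HOM n = 3) and short bars are genotype means. TYRP1-H and pmela stand highest and dct lowest, slc24a5 spans the widest range, and the 3 genotypes overlap for every gene.

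Among the enzymes, TYRP1-H had 8.19, 11.4, 6.32, 4.12 and 26.8 CPM in WT1 to WT5. It had 11.8, 10.4, 10.9, 6.70 and 24.5 CPM in HET1 to HET5, and 3.07, 8.26 and 16.2 CPM in HOM1 to HOM3. Each genotype held 1 sample well above its others (WT5, HET5 and HOM3), and the lowest value of all was that of HOM1. WT samples averaged 11.4 ± 9.05 (SD, n = 5), HET samples 12.9 ± 6.81 (n = 5) and HOM samples 9.19 ± 6.63 (n = 3). The log2 fold change in edgeR's quasi-likelihood fit was -0.32 ± 0.64 (SE) for HOM against WT, 0.18 ± 0.55 for HET against WT and -0.50 ± 0.65 for HOM against HET. The variation between samples far exceeded counting error, with a chi-square per degree of freedom of 129.68 for the counts. The second TYRP1 row was lower and spread still more widely: TYRP1-L ran from 0.116 CPM (WT4) to 2.4 CPM (HET5), a 20.7-fold range, with means of 1.08 ± 0.862 in WT, 1.19 ± 0.810 in HET and 1.28 ± 0.930 in HOM. The low end rests on few reads, since TYRP1-L had 2 counts in WT4.

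Tyrosinase transcripts had 0.695, 0.368, 0.812, 0.407 and 0.222 CPM in WT1 to WT5. In HET1 to HET5 tyr had 1.01, 0.364, 0.392, 0.447 and 0.600 CPM, and in HOM1 to HOM3 it had 1.14, 0.346 and 1.90 CPM. HOM1 and HOM3 were the highest samples of the series, whereas HOM2 was lower than all other samples but WT5, so the genotypes overlapped. The log2 fold change was 1.14 ± 0.56 for HOM against WT and 0.98 ± 0.57 for HOM against HET, and neither passed in edgeR (unadjusted p = 0.0644 and 0.107). Without HOM3 these values were 0.58 and 0.43, and without HOM2 they were 1.57 and 1.41. With the mean of keratinocyte genes as covariate HOM against WT was 1.28 ± 0.47 (edgeR, unadjusted p = 0.0191, adjusted p = 0.9995). With that of skeletal muscle genes it was 1.05 ± 0.50 (edgeR, unadjusted p = 0.0562). For dct, 2 to 7 counts were found in each library, 46 in all, and they varied no more than counting error would give (chi-square per degree of freedom 0.722). It was too low for the fit, and an exact permutation test of log2(CPM + 1), two-sided, gave p = 0.607 for HOM against WT, 0.254 for HET against WT and 0.589 for HOM against HET, where 56, 252 and 56 splits allow no p below 0.0179, 0.00794 and 0.0179. A difference in dct was not detectable at this depth.

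The melanosome matrix gene pmela had 9.39, 15.2, 6.68, 5.87 and 23.6 CPM in WT1 to WT5. In the mutants it had 12.1, 8.74, 10.8, 7.60 and 23.3 CPM in HET1 to HET5 and 4.42, 11.8 and 19.8 CPM in HOM1 to HOM3. The samples that were high or low for TYRP1-H were again high or low here. Group means were close to each other, at 12.1 ± 7.37 in WT, 12.5 ± 6.30 in HET and 12 ± 7.69 in HOM, and the log2 fold changes were -0.03 ± 0.55 (HOM against WT), 0.04 ± 0.48 (HET against WT) and -0.07 ± 0.55 (HOM against HET). The RPKM ratio of pmela to TYRP1-H stayed between 0.524 (HET2) and 0.896 (HOM1), a 1.71-fold range, while each gene by itself varied over 5.34-fold (pmela) and 8.74-fold (TYRP1-H). The paralog pmelb was almost silent in skin, with at most 0.532 CPM (WT2) and no count in WT4 and HOM2.

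Of the transporters, slc24a5, which encodes a potassium-dependent sodium/calcium exchanger, had the widest range of all 11 rows, 45.2-fold. It had 3.41, 2.25, 6.68, 0.349 and 0.926 CPM in WT1 to WT5. HET1 to HET5 had 2.68, 0.243, 0.262, 1.34 and 0.600 CPM, and HOM1 to HOM3 had 10.98, 0.396 and 4.64 CPM. High samples were HOM1, WT3 and HOM3, and low ones were HET2, HET3, WT4 and HOM2, so every genotype contained low samples. Means were 2.72 ± 2.51 in WT, 1.02 ± 1.03 in HET and 5.34 ± 5.33 in HOM. The log2 fold change was 0.97 ± 1.0 for HOM against WT (edgeR, unadjusted p = 0.352), -1.41 ± 0.93 for HET against WT (0.152) and 2.38 ± 1.03 for HOM against HET (0.0378; adjusted p = 0.9998). Without HOM1 the first of these was -0.16 and the last 1.29. With the mean of skeletal muscle genes as covariate the last was 1.54 (edgeR, unadjusted p = 0.155), and with that of keratinocyte genes 2.14 (0.0282). The exact permutation test of log2(CPM + 1) gave p = 0.161 for HOM against HET. HOM1, with 472 counts of slc24a5, held 3.92 times as much slc24a5 as pmela per length, and HET3, with 4 counts, held 0.0383 times as much, a 102-fold difference in the ratio.

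The pH-regulating transporter genes oca2 and slc45a2 were lower and spanned narrower ranges than slc24a5. In WT1 to WT5 oca2 had 0.967, 1.27, 0.459, 0.523 and 1.67 CPM, in HET1 to HET5 0.655, 0.486, 0.915, 0.825 and 1.8 CPM, and in HOM1 to HOM3 0.396, 0.742 and 0.994 CPM. It peaked in HET5 and WT5, as TYRP1-H and pmela did, and the genotypes overlapped (log2 fold change -0.50 ± 0.55 for HOM against WT, -0.05 ± 0.46 for HET against WT). Slc45a2 had 1.27, 0.981, 0.459, 0.697 and 1.18 CPM in WT1 to WT5, 1.01, 0.304, 0.785, 0.550 and 1.58 CPM in HET1 to HET5, and 1.33, 0.643 and 1.57 CPM in HOM1 to HOM3. Its highest samples included HOM1, in which oca2 was at its lowest, so the RPKM ratio of slc45a2 to oca2 was 11.1 in HOM1 and 2.06 to 5.22 in the other samples. The log2 fold changes of slc45a2 were 0.35 ± 0.51 for HOM against WT, -0.12 ± 0.45 for HET against WT and 0.47 ± 0.52 for HOM against HET.

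Of the regulators, MITF-H had 1.26 ± 0.174 CPM in WT, 1.2 ± 0.284 in HET and 1.09 ± 0.607 in HOM, between 0.544 CPM (HOM2) and 1.74 CPM (HOM1), a 3.21-fold range and the smallest of the rows in the fit. Its log2 fold changes were -0.19 ± 0.38, -0.08 ± 0.32 and -0.11 ± 0.38 for HOM against WT, HET against WT and HOM against HET. MITF-L had 1 to 16 counts per library and means of 0.276 ± 0.185 CPM in WT, 0.296 ± 0.217 in HET and 0.182 ± 0.144 in HOM. The receptor gene kita had 3.14, 4.05, 6.39, 2.61 and 1.63 CPM in WT1 to WT5, 4.22, 1.64, 3.60, 2.78 and 3.87 CPM in HET1 to HET5, and 5.96, 2.47 and 3.56 CPM in HOM1 to HOM3. Its highest samples, WT3 and HOM1, were also those of slc24a5, and the genotypes overlapped (log2 fold change 0.17 ± 0.44 for HOM against WT, -0.15 ± 0.39 for HET against WT, 0.32 ± 0.44 for HOM against HET). The paralog kitb reached at most 0.243 CPM and had no count in HET3, HOM2 and HOM3.

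The comparisons of HOM and HET with WT ask whether loss of 1 or both working copies of tert changed the pigment genes. Of the 11 rows, 10 passed the filter on low counts and were tested with all other genes, and in edgeR 0 of the 10 passed an adjusted p of 0.05 in any of the 3 comparisons, where 0% of all 19141 genes passed as well. An unadjusted p under 0.05 was reached by 0, 0 and 1 of the 10 rows (slc24a5, HOM against HET) in HOM against WT, HET against WT and HOM against HET, against 2.73%, 5.49% and 2.74% of all genes. DESeq2 called 0 rows, against 0.189%, 0.783% and 0.00526% of the genes to which it gave an adjusted p, and in HET against WT it gave one to 6 of the 10 rows. No row had groups that did not overlap, while 1.18%, 0.564% and 2.50% of all genes did. In each comparison 5 rows lay above 0 and 5 below. The median log2 fold change of the 10 rows was 0.07, -0.01 and -0.00, beside -0.05, -0.04 and -0.01 over all genes tested. In bulk skin, fewer melanophores and less RNA in each of them cannot be told apart, and the standard errors, from 0.32 to 1.03 on the log2 scale, leave room for changes of that size in single genes.

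**Figure D2:**
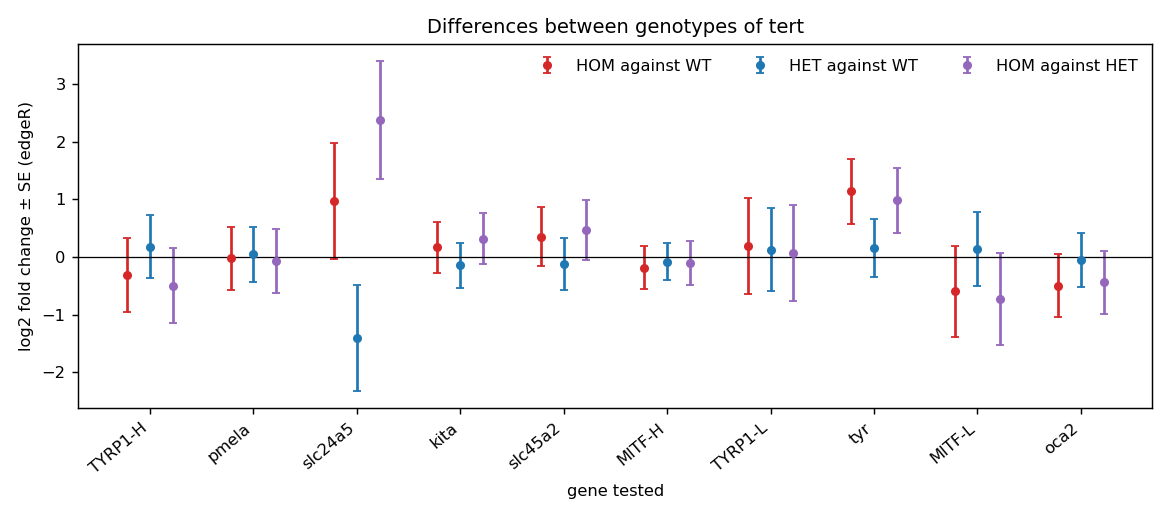
Log2 fold change in edgeR of the 10 rows tested, with bars of 1 SE either side, for HOM against WT, HET against WT and HOM against HET (5 WT, 5 HET and 3 HOM samples). Most values lie within 1 SE of the line at 0; slc24a5 reaches 2.38 for HOM against HET and -1.41 for HET against WT, and tyr 1.14 for HOM against WT.

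Although the genotypes did not separate, the samples differed in an ordered way. Pearson's r of log2(CPM + 1) over 13 samples was computed for all 55 pairs of rows, with p-values from 100000 permutations adjusted over the 55. In 8 pairs the adjusted p was under 0.05, all with a positive r, while the median over the 55 was 0.15 and 23 pairs had a negative r. The tightest pair was TYRP1-H with pmela (r = 0.963, rho = 0.967, adjusted permutation p = 0.00055, from the smallest p these permutations can give, 1e-05). Its r was 0.937 without WT5 and HOM1, 0.950 to 0.975 when any 1 sample was left out, 0.954 without WT1 and WT5, and 0.980 with each genotype centred on its mean.

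The other pairs fell into a pair of groups that share no gene. TYRP1-H, TYRP1-L, pmela and oca2 rose and fell together in all 6 of their pairs. In these TYRP1-L with pmela had r = 0.889 (rho = 0.907, adjusted permutation p = 0.00147), pmela with oca2 had r = 0.881 (rho = 0.857, 0.00138), TYRP1-L with TYRP1-H had r = 0.861 (rho = 0.868, 0.00151), TYRP1-H with oca2 had r = 0.841 (rho = 0.786, 0.0033) and TYRP1-L with oca2 had r = 0.735 (rho = 0.791, 0.0311). Without the 2 samples farthest from the median, r stayed between 0.641 and 0.850 in these 5 pairs, and without WT1 and WT5 between 0.678 and 0.918. The second group joined tyr with slc24a5 (r = 0.736, rho = 0.753, adjusted permutation p = 0.0295; 0.683 without HOM1 and HOM3) and slc24a5 with kita (r = 0.746, rho = 0.654, adjusted permutation p = 0.0295). The latter rested on its extreme samples: its rho did not pass (adjusted p = 0.109), and without WT3 and HOM1 its r was 0.486. Tyr with kita had r = 0.581 and did not pass (adjusted permutation p = 0.209). Without WT1 and WT5, r was 0.746 for tyr with slc24a5 and 0.810 for slc24a5 with kita. Between the groups every r lay between -0.36 and 0.15.

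**Figure D3:**
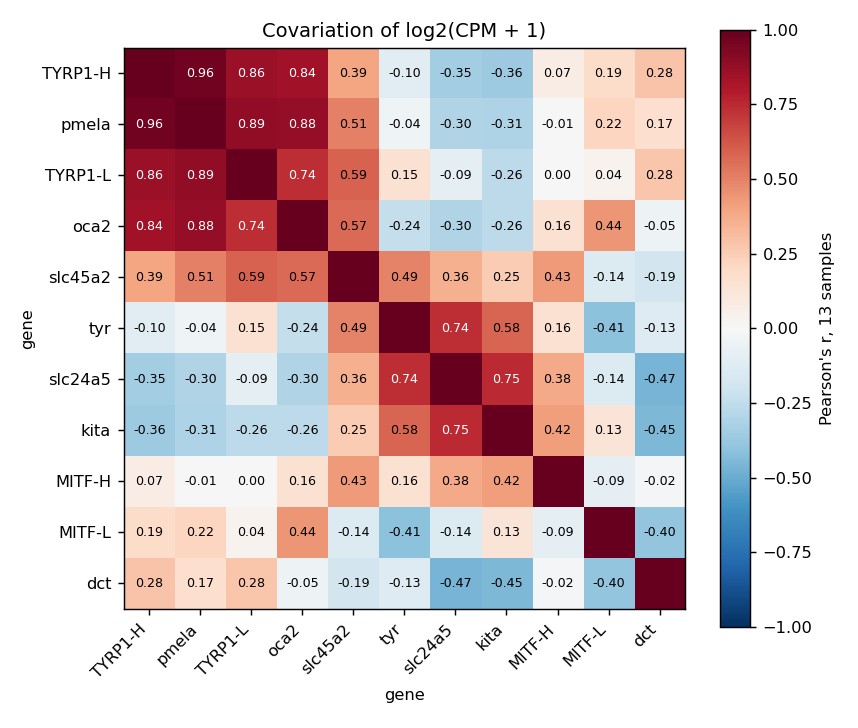
Pearson's r of log2(CPM + 1) between each pair of the 11 rows over 13 samples, printed in each cell and coloured from blue (-1) to red (1). A block of TYRP1-H, pmela, TYRP1-L and oca2 with r of 0.74 to 0.96 stands in the upper left corner, and tyr, slc24a5 and kita form a smaller block with r of 0.58 to 0.75.

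The remaining rows joined neither group by this test. Slc45a2 had r = 0.589 with TYRP1-L, 0.569 with oca2, 0.506 with pmela and 0.395 with TYRP1-H. With tyr it had r = 0.493 (0.151 without HOM1 and HOM3), with slc24a5 0.355 and with kita 0.253. It passed in none of these pairs. Set against the mean of the other 10 rows, it passed by r (r = 0.747, adjusted permutation p = 0.0407) and by rho (rho = 0.758, adjusted permutation p = 0.0427). TYRP1-L passed by rho (rho = 0.714, adjusted permutation p = 0.0434) but not by r (r = 0.669, 0.0787), and the other 9 rows passed by neither. MITF-H had r between -0.09 and 0.43 with every other row, and MITF-L between -0.41 and 0.44. Dct, whose few counts hold little beyond counting error, had r = -0.150 with the mean of the others.

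Skin holds other pigment cells and other tissues, so the rows were compared with lists of genes that mark 8 other cell types, using the mean of each list's centred log2(CPM + 1). The mean of the 11 rows was taken in the same way, so rows that varied more weighed more in it. The mean of the 11 rows followed the xanthophore list (19 genes; r = 0.873, rho = 0.835, adjusted permutation p = 0.00088 over the 8 lists) and the dermal matrix and fibroblast list (23 genes; r = 0.742, rho = 0.626, adjusted permutation p = 0.0162). For xanthophores r was 0.810 without WT4 and HOM2, 0.829 to 0.929 leaving out any 1 sample, and 0.873 with each genotype centred. For dermal matrix the rho did not pass (adjusted p = 0.0671), and neither did r without WT4 (0.63). The iridophore list had r = 0.620 (adjusted permutation p = 0.0587) and rho = 0.714, of which the rho passed (adjusted permutation p = 0.0304). Its r passed with each genotype centred (0.65, adjusted permutation p = 0.0374) and when any 1 of WT1, WT5 and HOM1 was left out. Keratinocyte, muscle, nerve, leucocyte and liver lists did not pass, with r between -0.24 and 0.33. Some genes of these lists also stand in one of the melanophore lists described further on, among them gpnmb and tfec (iridophores), pcbd1 and both PAX7 rows (xanthophores) and erbb3b (Schwann cells). Without such genes the xanthophore list, then of 16 genes, had r = 0.851 (rho = 0.808, adjusted permutation p = 0.0024), and the iridophore list of 18 genes had r = 0.557 (adjusted permutation p = 0.119) with a rho of 0.659 that no longer passed (0.0671).

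The list means themselves ranged widely. For xanthophore genes the mean ran from -0.78 to 0.58 in WT, from -0.59 to 0.37 in HET and from -0.61 to 0.68 in HOM, and for skeletal muscle from -2.28 to 1.77, from -1.17 to 1.61 and from -1.68 to 1.22. Among the most abundant gene of each list, krt5 of keratinocytes had a mean of 11310 CPM, the muscle actin actc1b 11247, the collagen col1a1b 5228, apoa1b of the liver 1101, cd74a of antigen-presenting leucocytes 452, the myelin gene mbpa 136, the purine synthesis gene atic 48.2, and an akr1b1 row of the xanthophore list 149 CPM.

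The rows were also compared with the lists one by one. Of 88 relations (11 rows by 8 lists), 4 passed after adjustment over the 88. TYRP1-H and pmela followed the iridophore list (r = 0.856 and 0.846, rho = 0.819 and 0.813, adjusted permutation p = 0.00352 for both), with r = 0.808 and 0.799 without WT5 and HOM3. Slc45a2 followed the xanthophore list (r = 0.858, rho = 0.857, adjusted permutation p = 0.0106; 0.934 without WT4 and HOM2). Oca2 followed the Schwann cell and nerve list (r = 0.782, rho = 0.775, adjusted permutation p = 0.0315), but its rho did not pass (0.0607). Without WT1 and WT5 the r of these 4 relations was 0.843 (TYRP1-H), 0.863 (pmela), 0.863 (slc45a2) and 0.780 (oca2). With the xanthophore list the rows other than slc45a2 had r between -0.20 (dct) and 0.57 (TYRP1-L). No relation of tyr, slc24a5 or kita passed. Without the genes shared with a melanophore list the same 4 relations passed by r, with r = 0.799 (TYRP1-H), 0.791 (pmela), 0.831 (slc45a2) and 0.805 (oca2), each with an adjusted permutation p of 0.0176. By rho, TYRP1-H and pmela then did not pass (rho = 0.725 and adjusted permutation p = 0.0952 for both), while slc45a2 and oca2 did (0.0264 and 0.0444).

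**Figure D4:**
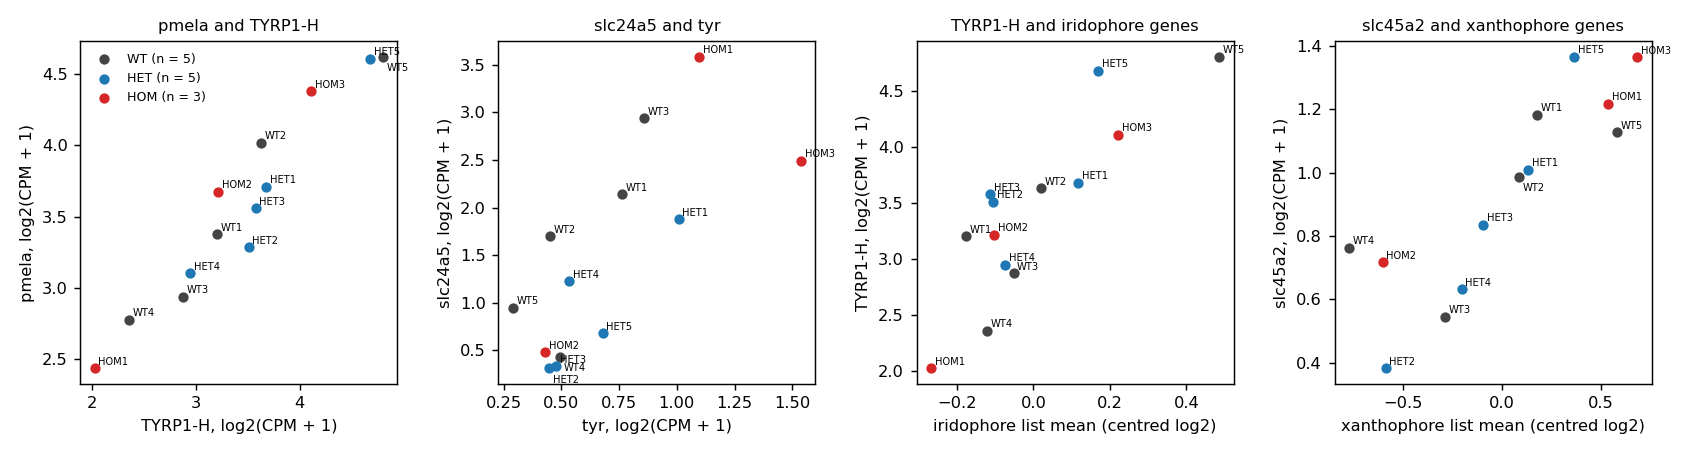
Sample by sample relations on log2(CPM + 1) axes or list means (centred log2), with 13 samples coloured by genotype and labelled: pmela against TYRP1-H, slc24a5 against tyr, TYRP1-H against the iridophore list mean, and slc45a2 against the xanthophore list mean. All 4 relations rise (r = 0.963, 0.736, 0.856 and 0.858), and no genotype forms a cluster of its own.

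The 2 highest and the 2 lowest libraries for TYRP1-H were also the extremes in muscle genes, but other libraries did not match. The muscle list mean was highest in WT5 (1.77) and HET5 (1.61), the 2 highest libraries for TYRP1-H, and lowest in WT4 (-2.28) and HOM1 (-1.68), the 2 lowest. HOM3, with 16.2 CPM of TYRP1-H, had a muscle list mean of -0.37, and HOM2, with 8.26 CPM, had 1.22. TYRP1-H had r = 0.716 with that list (adjusted permutation p = 0.0504; 0.490 without WT4 and HOM1), and all 25 muscle genes had an r above 0 with TYRP1-H, with pmela, with TYRP1-L and with oca2. For tyr, slc24a5 and kita 0 of the 25 had an r above 0, so the 2 groups of pigment genes took opposite signs with muscle genes. With the muscle list mean tyr had r = -0.491, slc24a5 -0.464 and kita -0.428. None of these passed (adjusted permutation p = 0.22, 0.243 and 0.277). The split was not particular to muscle. Of 25 liver genes, 24 had an r above 0 with each of TYRP1-H, TYRP1-L, pmela and oca2. With tyr, slc24a5 and kita 0 did. Of 30 Schwann cell and nerve genes, 26 did with each of the first group, and 5, 5 and 6 with tyr, slc24a5 and kita. With keratinocyte genes the signs were the other way round: 9 of 44 had an r above 0 with TYRP1-H and 7 of 44 with oca2, but 34 of 44 with slc24a5 and 35 of 44 with tyr. Liver genes were far highest in WT5 and WT1. Without these libraries, r with the liver list mean was 0.54 for TYRP1-H, pmela and oca2 and 0.30 for TYRP1-L. For tyr, slc24a5 and kita it was then -0.22, -0.45 and -0.55. Genes within a list are not independent, and the part of muscle or epidermis content in the covariation was not tested.

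Of the 21 rows of the xanthophore list, 16 had an r above 0 with TYRP1-H, 16 with pmela, 17 with slc24a5, 17 with tyr and 19 with slc45a2, where between 46.7% and 56.3% of all 19131 genes did. With dct and MITF-L only 5 and 6 of the 21 did, beside 45.6% and 49.5% of all genes. High counts were not particular to this list. In the dermal matrix list 22 of 23 genes had an r above 0 with TYRP1-H, 22 with pmela and 21 with slc45a2. Of the 22 iridophore rows tested, 14 had an r above 0 with TYRP1-H and 14 with pmela, beside 53.0% and 52.6% of all genes. The share of mitochondrially encoded counts did not order the samples as TYRP1-H did: it was 25.4% in WT5, 33.3% in HET5 and 56.4% in HOM3, the 3 highest samples, and 43.9% in WT4 and 19.9% in HOM1, the 2 lowest. For slc24a5 the highest sample, HOM1, had the lowest share. Its low samples HET2, HET3, WT4 and HOM2 had 41.0%, 54.3%, 43.9% and 47.3%. HOM3, another high sample of slc24a5, had the highest share. No relation of a pigment gene to this share was tested.

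Other genes of the pigment cell pathway were taken from a list of melanosome maturation and transport (47 rows, 43 tested) and one of melanophore lineage and signalling (54 rows, 42 tested). In edgeR 0 members of either list were called higher or lower in any comparison, where 0% of all genes tested were called. The melanosome list had median log2 fold changes of 0.03, -0.06 and 0.04, and 1, 2 and 2 of its 43 rows had an unadjusted p under 0.05 in HOM against WT, HET against WT and HOM against HET. The lineage list had medians of -0.02, -0.00 and 0.03, with 1, 1 and 2 of 42. Of all genes tested, 2.73%, 5.49% and 2.74% had an unadjusted p under 0.05 in edgeR. Among their most abundant genes were cd63, a tetraspanin that helps sort Pmel in the melanosome (114 CPM on average; log2 fold change 0.29 ± 0.26 for HOM against WT), gpnmb, a relative of Pmel (39.4 CPM; 0.10 ± 0.47), the ion channel gene trpm7 (29.4 CPM; -0.39 ± 0.32), the crest transcription factor gene tfap2c (103 CPM; -0.15 ± 0.53) and the deacetylase gene hdac1 (83.6 CPM; 0.13 ± 0.18). The xanthophore list, which the mean of the 11 rows followed, had medians of 0.39, -0.07 and 0.56, with 17, 9 and 18 of its 21 rows above 0 and 0 called. Of all genes tested, 43.2%, 45.6% and 48.8% lay above 0. The dermal matrix list had 16, 7 and 20 of 23 above 0. A shift of a list as a whole was not tested. For iridophores the medians were -0.01, 0.06 and -0.08.

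Of the melanosome list, 33 of 43 rows had an r above 0 with the mean of the 11 pigment rows (median 0.25), and of the lineage list 21 of 42 (median 0.01), beside 56.8% of all genes (median 0.10). The 10 genes whose pattern over 13 samples was most like that mean, among 19131, were VSTM4 (r = 0.923), PCDH10 (0.916), an unnamed gene (ENSDARG00000076299, 0.914), hps4 (0.911), terfa (0.903), MEGF10 (0.903), GJA1 (0.901), ITPK1 (0.90), cuedc2 (0.899) and SCARB1 (0.894). These r, like those for single rows below, are the highest of 19131 over 13 samples and are given as a description. None was tested. Hps4, which was in the melanosome list, encodes a subunit of the BLOC-3 complex, which delivers cargo to melanosomes. SCARB1, in the xanthophore list, encodes a receptor through which carotenoids are taken up, and GJA1 encodes a connexin. For single rows, the genes most like TYRP1-H were MRAS (0.950) and sh3kbp1 (0.944), the latter also most like pmela (0.938), while CHST12 was most like slc24a5 (0.935) and lgals4 most like kita (0.921).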

How the data were processed

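RNA from 13 skin samples was sequenced, and the authors deposited raw counts for each gene and a further table called RPKM. The submitters' processing notes name bcl2fastq 1.8.4, STAR 2.4.1d, featureCounts 1.4.6-p4 and the build GRCz10, without roles or settings. The deposited RPKM values were treated as a score: the gene length implied by counts and RPKM was constant over samples (median CV 0.0026%, 3854 genes with over 200 counts in every sample) only if the 13 library totals were recycled from row to row (32.3% with each library's own), so 7.69% of the values had been divided by their own total. They served to recover gene lengths and for the alternative order of levels, and RPKM was recomputed from counts. Symbols were found for 26269 IDs (81.8%). GRCz10 was not used here, so no coordinates or sequences are given.

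Genes were kept by filterByExpr (19141), scaled by TMM (factors 0.769 to 1.43) and tested in edgeR 4.0.16 (glmQLFit, robust, and glmQLFTest; R 4.3.3; median dispersion 0.179), all 13 samples in 1 fit of genotype, two-sided, with Benjamini-Hochberg adjustment over all genes and a threshold of 0.05. SEs were derived from each fold change and F value. Scripts were tested on simulated data. DESeq2 1.42.0, the tool of the paper's own methods, limma 3.58.1 on log2(recomputed RPKM + 0.1 or + 1), other scalings and filters (1 CPM in 3 samples), covariates and leaving out samples were alternatives. The RPKM for limma was computed from library totals without TMM scaling, unlike the RPKM of the levels above. Leaving out WT1 and WT5 or either MITF row, the 55 pairs and the 88 relations were chosen after seeing the data, as were the groups of covarying genes. Correlations used Python 3.11.15 and log2(CPM + 1), with genes held by 2 of the 8 cell-type lists left out of list means. Leaving out genes shared with a melanophore list as well was added after seeing the data.

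The members, lists and tests were chosen with earlier results of these data known. The design expected 10 rows and thus 45 pairs and 9 neighbours, and 11 rows gave 55 and 10. The rule for named genes took all members, tert, the paralogs, the called members and the 3 of highest mean CPM of each list, and the 10 genes most like the members' mean. A gene that this rule takes is not reported here.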

Additional observations from a re-analysis of the deposited data

Results flagged for a closer look

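Among 22 sets of 5 values (11 rows in WT and in HET), 2 had a sample far from the others by Dixon's test. For normally distributed values chance gives about 1 in 20 sets. Both were HET5, in 2 rows that varied together (r = 0.963), so they are not independent flags. TYRP1-H had 24.5 CPM in HET5 and at most 11.8 CPM in the other HET samples, a gap of 0.715 of the group's range beside a critical value of 0.710. Pmela had 23.3 CPM in HET5 and at most 12.1 CPM in the others, with the same share, 0.715. Without HET5, the log2 fold change of HET against WT was -0.20 for TYRP1-H and -0.31 for pmela. The 3 HOM samples were too few for this test.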

How the results depend on the processing

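No paired analysis was possible because the labels give no replicate numbers that the genotypes share. The count of genes called in edgeR was 0 in all 3 comparisons under every alternative fitted with edgeR or limma, while DESeq2 called 36, 123 and 1 (HOM against WT, HET against WT and HOM against HET) and none of the 10 rows. Without scaling, the median of all genes moved to -0.21, -0.29 and 0.08. The RPKM used in limma rested on library totals, so it also lacked the TMM scaling. There the median of all genes was -0.21, -0.24 and 0.03 with a pseudocount of 0.1. With a pseudocount of 1 it was -0.13, -0.16 and 0.02. Most fold changes of the pigment genes were smaller than their SE, and the following changed sign; except where a cause is in the construction of the alternative, the cause was not tested.

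For HOM against WT, the median of the 10 rows was -0.21 without scaling, and -0.14 and -0.066 in limma with pseudocounts of 0.1 and 1. Without WT1 and WT5 it kept its sign, at 0.36. The medians of the other comparisons, near 0 in the main fit, changed sign too. Among others, that of HET against WT was 0.15 without WT1 and WT5, and that of HOM against HET 0.14 with the muscle mean as covariate. For HOM against WT, TYRP1-L became -0.21 without scaling and -0.038 in limma with a pseudocount of 1. Without WT1 and WT5, TYRP1-H became 0.33, pmela 0.38 and kita -0.12, and pmela was 0.12 with the muscle mean as covariate. For HET against WT without scaling, tyr became -0.11, TYRP1-L -0.10, TYRP1-H -0.018, pmela -0.18 and MITF-L -0.16. In limma with a pseudocount of 0.1, tyr was -0.050, pmela -0.13 and MITF-L -0.14, and with a pseudocount of 1, tyr and TYRP1-L were both -0.020, pmela -0.11 and MITF-L -0.034. With the muscle mean as covariate pmela was -0.042 and MITF-L -0.26, with the keratinocyte mean MITF-L was -0.017 and kita 0.012, and without WT1 and WT5 oca2 was 0.32, slc45a2 0.24 and MITF-L -0.11. For HOM against HET, TYRP1-L was -0.12 without scaling and -0.0047 and -0.018 in limma with pseudocounts of 0.1 and 1, MITF-H was 0.16 without scaling and 0.0095 in limma with a pseudocount of 1, and pmela was 0.17 with the muscle mean as covariate.

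Leaving out 1 sample at a time, the median of the rows ranged from -0.23 to 0.32 (HOM against WT), -0.27 to 0.13 (HET against WT) and -0.26 to 0.34 (HOM against HET), the extremes coming without HOM3, WT5, HET5 or HET2. For HOM against WT, TYRP1-H ranged from -1.01 to 0.28, TYRP1-L from -0.40 to 0.69, pmela from -0.59 to 0.39, kita from -0.24 to 0.49, MITF-H from -0.73 to 0.14 and slc24a5 from -0.16 to 1.61. For HET against WT, tyr ranged from -0.16 to 0.40, TYRP1-L from -0.32 to 0.55, TYRP1-H from -0.20 to 0.78, pmela from -0.31 to 0.43, oca2 from -0.44 to 0.23, slc45a2 from -0.48 to 0.092, MITF-H from -0.18 to 0.049, MITF-L from -0.21 to 0.47 and kita from -0.33 to 0.17. For HOM against HET, TYRP1-L ranged from -0.53 to 0.62, pmela from -0.63 to 0.39, MITF-H from -0.61 to 0.22 and kita from -0.054 to 0.57.

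The median r over the 55 pairs ranged from 0.02 (without HET5) to 0.17 leaving out 1 sample. The relation to iridophore genes was stronger without scaling (r = 0.80) and with each genotype centred (0.65), and ranged from 0.56 to 0.68 leaving out 1 sample. That to dermal matrix ranged from 0.63 to 0.78 and that to leucocytes from -0.046 (without WT4) to 0.52, and that to keratinocytes was 0.27 without scaling. The relation to xanthophore genes passed under all alternatives run. The number of neighbours in level that passed was 4 also with the deposited RPKM table. Depth limits dct, MITF-L and the lowest values of TYRP1-L and slc24a5, which rest on a few counts in single libraries.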

Other observations

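Within the iridophore list, the genes that followed TYRP1-H most closely were not those of general purine synthesis. Over 13 samples defbl1, an iridophore peptide gene, had r = 0.91 with TYRP1-H, an FHL2 row (ENSDARG00000042018) had 0.88, gpnmb 0.87 and pnp4a, a purine nucleoside phosphorylase of iridophores, 0.80. The purine synthesis genes atic, ppat and gart, which every dividing cell uses, had r = -0.65, -0.65 and -0.63. Less far below 0 were the purine synthesis genes paics (-0.51), pfas (-0.34) and gmps (-0.15). Other genes of the list outside purine synthesis differed in how they followed TYRP1-H. Among the closer ones alkal2a had r = 0.79, an ALX4 row (ENSDARG00000088332) 0.68, mpv17 0.63 and sox10 0.59. Weaker or opposite were ltk with r = 0.29, the second FHL2 row (ENSDARG00000003991) 0.32, alkal2b -0.25 and the second ALX4 row (ENSDARG00000074442) -0.46. The list as a whole was thus mixed, and gpnmb stands in the melanosome list as well. These genes were picked with their values known, and r is given as a description.

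Members of the xanthophore list differed in the pigment genes they followed. Csf1ra, a receptor gene of xanthophores that the leucocyte list holds as well, had r = 0.82 with slc24a5, 0.82 with kita and -0.17 with TYRP1-H. The pteridine and xanthophore gene aox5 had r = 0.71 with slc24a5 and 0.19 with TYRP1-H. Others had a higher r with TYRP1-H than with slc24a5: bco1l had 0.76 and -0.19, the pteridine gene pcbd1 0.63 and -0.09, csf1rb 0.63 and 0.15, xdh 0.53 and 0.02, and a PAX7 row (ENSDARG00000100398) 0.64 and -0.10. The other PAX7 row (ENSDARG00000070818) had r = 0.92 with slc45a2, and SCARB1 0.86. Of the 21 rows, 16 had an r above 0 with TYRP1-H. Among those below 0 was the more abundant akr1b1 row (ENSDARG00000045598), with r = -0.63 with TYRP1-H and 0.73 with slc24a5. Paics had -0.51 and 0.70, mycla -0.51 and -0.26, and the pteridine gene pts -0.47 and 0.57. All genes of this paragraph, too, were picked with their values known, and no test was made.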
